A study of Mus musculus with 79 samples.

Results

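Potassium channel genes were followed across dopamine receptor-expressing neurons of the mouse striatum and prefrontal cortex. The members were all genes whose symbol is Kcn, 1 or more lower-case letters and a final number, which took in 92 of the 25899 gene symbols in the table. By the letters after Kcn these were 8 Kv1, 2 Kv2, 4 Kv3, 3 Kv4 and 5 Kv7 pore subunits, 8 genes of the EAG, ERG and ELK channels, 10 modifier subunits, 4 Slo channels, 4 small- and intermediate-conductance calcium-activated channels, 15 inward rectifiers, 14 tandem pore domain (K2P) channels and 15 auxiliary subunits. The rule left out 2 symbols that also begin with Kcn, Kcne1l and Kcnrg. The rule itself uses no expression value.

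Ribosome-bound mRNA was sequenced in 79 bacTRAP libraries. In this method a chosen promoter drives a tagged copy of ribosomal protein L10a (eGFP-L10a), and the tag serves to pull down ribosomes from cells in which that promoter is active. All mice carried such a transgene, as heterozygotes on C57BL/6J, under the promoter of the D1 dopamine receptor gene Drd1a or of the D2 receptor gene Drd2, and each library pooled 3 mice, of both sexes wherever the labels give the sex of all of them. The groups were D1 neurons of the dorsal striatum (15 libraries), D2 neurons of the dorsal striatum (16), D1 neurons of the ventral striatum, punched from the nucleus accumbens (15), D2 neurons of the ventral striatum (14) and D1 neurons of the prefrontal cortex (19). The labels name no drug treatment and give no age. D2 neurons of the cortex were not analysed here. The series title poses the question of how expression in neurons with dopamine receptors depends on the region. The labels do not say which libraries share mice, so p-values measure the spread between libraries only.

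Potassium channels carry outward current and set the resting potential, the delay to the first spike and the rate of firing. Striatal projection neurons are known for a very negative resting potential held by inward rectifiers of the Kcnj family, for A-type currents, slowly inactivating ones of Kv1 and fast ones of Kv4 channels, that delay firing, and for the M current of Kv7 channels. D1 neurons project mainly along the direct pathway of the basal ganglia and D2 neurons along the indirect pathway. Pore subunits of the voltage-gated families assemble in groups of related subunits, and auxiliary proteins such as the KChIPs (Kcnip genes), which bind Kv4 channels, and the Kvbeta proteins (Kcnab genes), which bind Kv1 channels, change how many channels reach the membrane and how fast they inactivate.

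Reads in listed genes ran from 7.35 to 30.8 M per library (median 17.5 M), and 1 read was worth between 0.0124 and 0.0466 CPM (reads per library total, as scaled in the deposited table). The summed level of the D1 projection neuron markers Drd1a, Tac1 and Pdyn had a median of 442 CPM in D1 and 30.3 CPM in D2 libraries of the dorsal striatum, and that of the D2 markers Drd2, Adora2a and Penk a median of 62.2 CPM in D1 and 3646 CPM in D2. In the ventral striatum these medians were 355 and 37.5 CPM for the D1 markers and 128 and 2145 CPM for the D2 markers. In the D1 libraries of the cortex they were 24.3 and 18.5 CPM. Drd1a alone averaged 18.8 ± 8.55 CPM there (SD, n = 19), near the 15.2 ± 9.01 CPM of D2 dorsal libraries (n = 16). The 4 cortical excitatory markers Slc17a7, Neurod6, Neurod2 and Tbr1 summed to 23.9, 78.9 and 107 CPM (lowest, median and highest) in D1 and to 0.928, 6.10 and 27.9 CPM in D2 dorsal striatum, to 13.7, 53.4 and 92.1 CPM in D1 and 2.79, 9.21 and 66.4 CPM in D2 ventral striatum, and to 448, 497 and 772 CPM in the cortex. A set of 6 libraries stood apart from their groups, with a median correlation with the other libraries of 0.878 to 0.918 against 0.923 to 0.986 for the remaining 73: D1 dorsal striatum replicates 4 and 13, D2 dorsal striatum replicate 6, D2 ventral striatum replicates 6 and 14 and prefrontal cortex replicate 10. Among the 51 members that averaged at least 2 CPM, D1 dorsal striatum replicate 4 was the lowest library of its group for 23 and replicate 13 for 16, and D2 dorsal striatum replicate 6 for 16.

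Of the 92 members, 50 were tested in all 6 comparisons of 2 groups, 13 in some, and 29 in none because too few libraries reached 1 CPM. Of the 29, 5 (Kcna7, Kcnj1, Kcnk16, Kcnk18 and Kcnmb3) were at 0 in every library. A member was called when limma's adjusted p was under 0.05 over all genes tested. Differences are of log2(CPM + 0.5), so those of low genes are understated. Counts over the members tested describe those members only. A gene low in one group, such as Kcnc4 in D2 dorsal or Kcnj6 in D2 ventral striatum, reached 1 CPM mainly through the other group, and the filter favours that direction.

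Per kilobase of exon, the leading members were the KChIP genes Kcnip3 and Kcnip2, whose products bind and modulate Kv4 channels, and Kcna1 (Kv1.1), a low-threshold channel of axons. In D1 dorsal striatum Kcnip3 stood at 36.9 ± 8.17 CPM per kb (mean ± SD, n = 15) and Kcnip2 at 32.3 ± 3.82, which did not differ beyond their spread. Kcna1 followed at 23.5 ± 4.70 CPM per kb, the Kv1 partner Kcnab1 at 18.4 ± 3.37 and the Kv4 pore subunit Kcnd2 at 15.5 ± 3.14, neighbours whose ranges of 1 SD meet. In D2 dorsal striatum the K2P channel Kcnk2 (TREK-1), a background channel opened by stretch, heat and lipids, was rank 4 of the members at 21.5 ± 5.23 CPM per kb (n = 16), against 7.99 ± 2.58 in D1 neurons of the same region. In the cortex Kcnip3 stayed in the lead at 30.2 ± 4.81 CPM per kb (n = 19), while Kcnip2 stood at 6.27 ± 1.27 and Kcnip4 at 17.8 ± 5.14. Cortical Kcnj3 (GIRK1), a G protein-gated inward rectifier subunit, stood at 9.61 ± 2.79 CPM per kb, against 1.81 to 2.85 in the 4 striatal groups.

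Whether the D1 to D2 difference depends on the striatal region was tested as an interaction, the difference in the dorsal minus that in the ventral striatum. Among 57 members tested 3 were called, Kcnip1, Kcnc2 and Kcnj3, and all 3 were positive; over all 11873 genes tested 2.64% were called and 1.93% were positive. The members' share was not tested against that of all genes. The 3 members are an auxiliary subunit of Kv4 channels (KChIP1), a fast delayed rectifier of fast-spiking neurons (Kv3.2) and the GIRK subunit that most neuronal G protein-gated channels contain. All 3 were higher in D1 than in D2 neurons of the dorsal striatum, and in the ventral striatum Kcnip1 and Kcnj3 were lower in D1. The ventral differences of both were not called with the libraries whose names begin with EM alone (adjusted p = 0.127 and 0.117), nor with the share of reads in genes in the model (adjusted p = 0.531 and 0.621).

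Kcnip1 lies on chromosome 11 (33629339 to 33993152, minus strand, GRCm38). Its CPM in the dorsal striatum was 1.96, 3.04 and 10.0 (lowest, median and highest) in D1 and 0.751, 1.62 and 3.70 in D2 libraries. In the ventral striatum it was 14.7, 18.8 and 26.6 in D1 and 15.8, 24.5 and 40.4 in D2, and in the cortex 20.1, 31.4 and 43.1. Every ventral and cortical library lay above every dorsal library, whereas the D1 and D2 ranges overlapped in each striatal region. D1 minus D2 was 0.83 (SE 0.18, adjusted p = 0.000873) in the dorsal and -0.36 (SE 0.12, adjusted p = 0.0111) in the ventral striatum, and the interaction was 1.20 (SE 0.22, adjusted p = 0.000301). In bulk libraries such as these, fewer cells of a type and less mRNA per cell cannot be told apart.

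Kcnc2 lies on chromosome 10 (112271121 to 112467024, plus strand). Its CPM was 2.09, 5.38 and 7.65 in D1 and 0.517, 2.09 and 4.85 in D2 dorsal striatum, and 1.91, 3.26 and 4.59 in D1 and 2.30, 4.25 and 9.01 in D2 ventral striatum. The groups of each region overlapped, and 8 of 15 dorsal D1 libraries lay above every dorsal D2 library. The difference, D1 minus D2, was 1.02 (SE 0.23, adjusted p = 0.00109) in the dorsal striatum and -0.30 (SE 0.15, adjusted p = 0.0826), not called, in the ventral striatum, with an interaction of 1.33 (SE 0.28, adjusted p = 0.00201).

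Kcnj3 lies on chromosome 2 (55435970 to 55598145, plus strand). Its CPM was 9.23, 14.4 and 22.2 in D1 and 5.21, 8.91 and 13.8 in D2 dorsal striatum, and 5.54, 10.3 and 13.4 in D1 and 7.72, 13.7 and 33.2 in D2 ventral striatum. Dorsal D1 and ventral D2 libraries were the higher pair, each overlapping the other group of its region. The D1 minus D2 difference was 0.64 (SE 0.13, adjusted p = 0.000294) in the dorsal and -0.45 (SE 0.15, adjusted p = 0.0178) in the ventral striatum, with an interaction of 1.08 (SE 0.20, adjusted p = 0.000317). An opposite-strand noncoding gene, Gm26794, shares 31.1% of the Kcnj3 exon length, and reads of the 2 cannot be told apart where the counting ignored strand.

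The interaction was called for all 3 in every alternative in which they were tested. With EM libraries alone it was 1.19 for Kcnip1, 1.33 for Kcnc2 and 1.13 for Kcnj3 (adjusted p = 0.0182, 0.00527 and 0.0117), and without the 6 libraries that stood apart it was 1.21, 1.51 and 1.21. Markers of other cells moved in the same comparison. The 4 GABA interneuron markers (Sst, Npy, Pvalb, Vip) summed to 13.1, 28.7 and 55.9 CPM in D1 and 3.20, 8.20 and 22.9 CPM in D2 dorsal striatum, but to 5.82, 13.8 and 33.3 CPM in D1 and 5.98, 14.3 and 25.5 CPM in D2 ventral striatum, and the cortical markers were higher in D1 in both regions. Their part in these results was not tested.

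**Figure D1:**
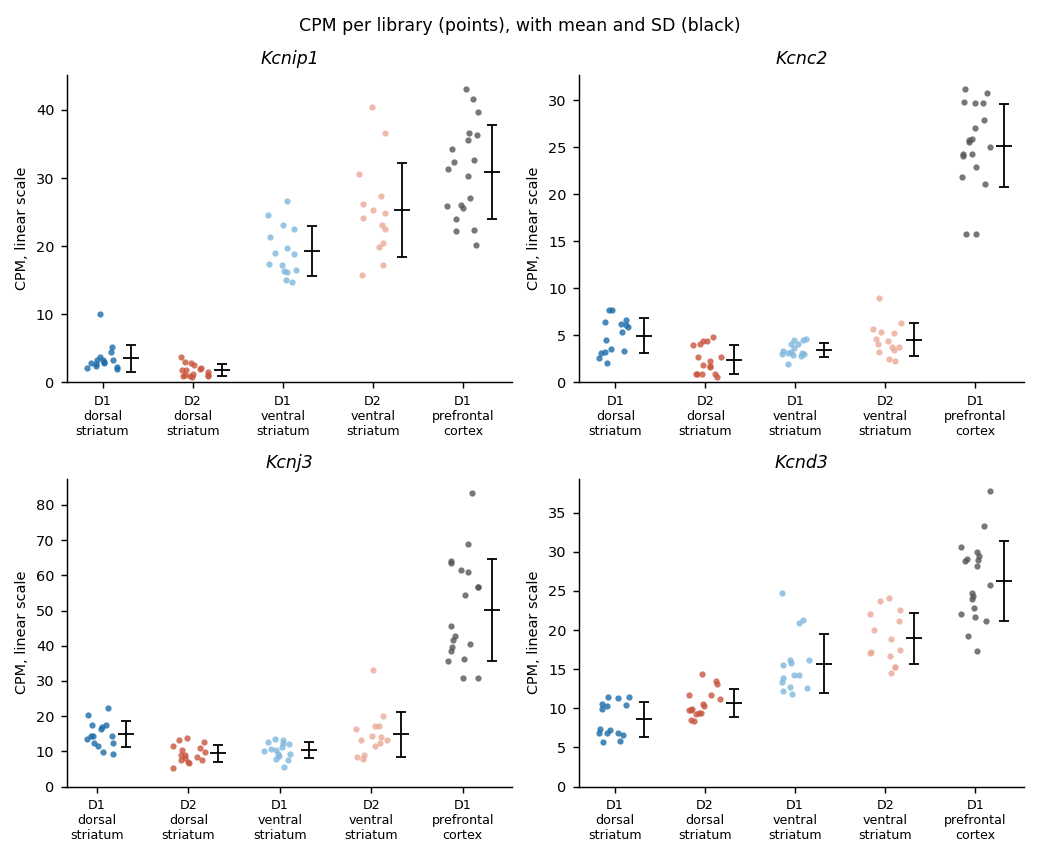
CPM of Kcnip1, Kcnc2, Kcnj3 and Kcnd3 in each of the 79 libraries (points) by group, on linear axes from 0, with the group mean and SD in black. For Kcnip1 and Kcnd3 every ventral library lies above every dorsal library of the same receptor, and for Kcnc2 and Kcnj3 the 19 cortical libraries lie above every D1 striatal library.

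Upstream sequence is shown for the 3 genes whose D1 to D2 difference depended on the region, because their interactions were called with the same sign. RefSeq's promoter table (GRCm38.p6) held 67 of the 92 members, with 3 starts for Kcnip1, 4 for Kcnc2, of which the most upstream is shown, and 1 for Kcnj3. The bases after the 3 Kcnip1 starts and after Kcnc2 starts 1 and 4 are in no GENCODE transcript of their gene, whereas those after Kcnc2 starts 2 and 3 and the Kcnj3 start are. Each sequence is the 100 bases before a start, 5′ to 3′ on the gene's strand, with capitals marking a GC box (GGGCGG on either strand, the binding letters of Sp1-type factors).
Kcnip1 start 1, chr11:33993194-33993293 (-): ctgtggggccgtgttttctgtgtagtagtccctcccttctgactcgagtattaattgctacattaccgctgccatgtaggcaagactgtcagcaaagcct
Kcnip1 start 2, chr11:33843687-33843786 (-): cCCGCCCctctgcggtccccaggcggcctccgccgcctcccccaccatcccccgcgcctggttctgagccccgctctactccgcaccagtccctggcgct
Kcnip1 start 3, chr11:33680683-33680782 (-): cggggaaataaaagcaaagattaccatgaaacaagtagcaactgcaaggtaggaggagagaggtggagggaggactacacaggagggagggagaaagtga
Kcnc2 start 1, chr10:112269917-112270016 (+): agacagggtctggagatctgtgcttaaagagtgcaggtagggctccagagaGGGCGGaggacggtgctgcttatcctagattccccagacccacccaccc
Kcnj3 start 1, chr2:55435870-55435969 (+): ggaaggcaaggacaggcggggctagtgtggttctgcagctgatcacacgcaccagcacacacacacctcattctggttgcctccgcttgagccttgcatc
Kcnip1 start 2 and Kcnc2 start 1 each held 1 GC box, which 24.7% of all 32851 such windows held, and the windows of Kcnc2 starts 2 to 4 held 0. None of the 5 windows shown held a TATA box (TATAAA, 5.56% of windows) or a CRE half-site (TGACG, 10.5% of windows), searched on both strands. Kcnip1 start 2 held 10 CG dinucleotides, where the median window held 3, and the other Kcnip1 windows held 3 and 1. The values in the table are per gene and do not tell the starts apart.

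In the dorsal striatum, 21 of 54 members tested differed between D1 and D2 neurons, 15 higher and 6 lower in D1. The background was 25.9% of 11090 genes, with 12.8% higher and 13% lower in D1. The members' median difference was 0.13, against 0.02 over all genes. The members' split was 17 to 4 scaled to the reads in genes, 12 to 6 with median-ratio scaling, 8 to 6 among the 39 tested at 5 CPM and 20 to 4 without the libraries that stood apart. In those fits 25.8%, 26.3%, 26.8% and 30.5% of all genes were called. Scaled to the reads in genes, the median over all genes was 0.07 and that of the members 0.19. Of the letters that begin library names, D1 dorsal libraries had EM (11), BdP (3) and JAG (1) and D2 dorsal libraries EM (8) and OdP (8), so outside EM the receptor and the name code cannot be told apart. With EM libraries alone 14 members were higher and 3 lower of 55 tested, and 12.3% of all genes were called.

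The K2P channel Kcnk2, on chromosome 1 (189207930 to 189402273, minus strand), had the largest difference toward D2. Its CPM was 26.5, 33.7 and 64.2 in D1 and 72.7, 94.6 and 150 in D2 dorsal striatum, and 17.6, 22.8 and 37.4 in D1 and 33.4, 41.7 and 87.4 in D2 ventral striatum. The dorsal groups did not overlap, and in the ventral striatum 11 of 14 D2 libraries lay above every D1 library. D1 minus D2 was -1.44 (SE 0.13, adjusted p = 6.65e-11) in the dorsal and -1.07 (SE 0.15, adjusted p = 5.12e-07) in the ventral striatum, and -1.39 and -0.83 with EM libraries alone. An antisense gene, A430027H14Rik, shares 12.2% of the Kcnk2 exon length. The interaction of -0.37 (SE 0.20, adjusted p = 0.386) was not called, and with EM libraries alone it was -0.55 and called (adjusted p = 0.00527).

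Kv1 pore subunits differed in both directions. Kcna2 (Kv1.2), a low-threshold channel of axons and initial segments, had CPM of 10.2, 30.2 and 47.3 in D1 and 29.7, 49.2 and 58.3 in D2 dorsal striatum, and 13.2, 17.6 and 24.1 in D1 and 21.8, 30.1 and 54.7 in D2 ventral striatum. D2 libraries were the higher in both regions, with overlap. The difference, D1 minus D2, was -0.63 (SE 0.14, adjusted p = 0.00127) and -0.85 (SE 0.12, adjusted p = 1.27e-06), and with EM libraries alone the dorsal value was -0.54 and not called (adjusted p = 0.0562). Kcna1 and the A-type subunit Kcna4 (Kv1.4) were at -0.25 and -0.49 in the dorsal striatum, neither called with EM libraries alone (adjusted p = 0.0650 and 0.0793).

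Kcna6 (Kv1.6), a delayed rectifier, went the other way. Its CPM was 6.54, 14.5 and 36.6 in D1 and 3.65, 6.45 and 11 in D2 dorsal striatum, and the D1 library at 36.6 was replicate 4, which stood apart. The D1 minus D2 difference was 1.06 (SE 0.15, adjusted p = 1.11e-06) in the dorsal striatum and 0.62 (SE 0.13, adjusted p = 0.000405) in the ventral striatum, and 1.04 in the dorsal striatum without the libraries that stood apart. The ventral difference was 0.35 and not called with the share of reads in the model (adjusted p = 0.208). The antisense gene Gm26673 shares 39.6% of the Kcna6 exon length.

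Of the Kv3 genes, which encode fast channels that open at depolarized voltages, Kcnc4 (Kv3.4) and Kcnc2 were called in the dorsal striatum and both were higher in D1. Kcnc4 had CPM of 0.589, 2.89 and 7.11 in D1 and 0.0515, 0.653 and 1.88 in D2 libraries. All but 4 of the 15 D1 libraries lay above every D2 library, at levels that were low in both groups. D1 minus D2 was 1.55 (SE 0.23, adjusted p = 2.22e-06) in the dorsal striatum and 1.01 (SE 0.29, adjusted p = 0.00461) in the ventral striatum, where it was 0.38 and not called with EM libraries alone (adjusted p = 0.133). Kcnc1 (Kv3.1) differed by 0.26 in the dorsal striatum and was not called.

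Other members higher in D1 dorsal striatum were the BK channel subunit Kcnmb4, by 0.91 (SE 0.13), the Kv2 delayed rectifier subunit Kcnb2, by 0.76 (SE 0.15), the silent Kv2 modifier Kcnf1, by 0.62 (SE 0.12), the Kvbeta subunit Kcnab2, by 0.50 (SE 0.12), the ELK channel Kcnh4, by 0.52 (SE 0.19), and the modifier Kcng1, by 0.38 (SE 0.14). With EM libraries alone the last 3 were not called (adjusted p = 0.0921, 0.0718 and 0.160). Kcnmb4 had CPM of 3.61, 6.13 and 9.77 in D1 and 1.62, 3.45 and 4.42 in D2 libraries, and 14 of 15 D1 libraries lay above every D2 library; 2 antisense genes cover 10.7% and 20.9% of its exon length. The strong inward rectifier Kcnj2 (Kir2.1) and the Kv4 subunit Kcnd3 (Kv4.3) were lower in D1, at -0.49 (SE 0.13) and -0.32 (SE 0.11). Kcnd3 was not called with EM libraries alone, nor without the libraries that stood apart (adjusted p = 0.195 and 0.0657).

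For members higher in D1 dorsal striatum, cortex minus D1 dorsal striatum, a comparison that shares the D1 dorsal libraries, was 2.58 for Kcnc4, 1.52 for Kcna6, 2.29 for Kcnc2, 1.49 for Kcnmb4 and 3.03 for Kcnip1, but -2.45 for Kcnh4 and -1.24 for Kcng1. For the others it was 1.70 for Kcnj3, 1.15 for Kcnk3, 0.90 for Kcnb2, 0.85 for Kcnf1, 0.37 for Kcnab2 and 0.31 for Kcnh1, and 0.19 for Kcns1 and 0.09 for Kcnh6, which were not called. The cortical excitatory and GABA interneuron markers were both higher in D1 than in D2 dorsal libraries, at the levels given above. Cholinergic interneuron markers (Chat, Slc5a7 and Lhx8) went the other way, with sums of 0.365, 0.751 and 1.59 CPM in D1 and 2.89, 6.32 and 14.2 CPM in D2 dorsal libraries, and 0.559, 1.34 and 2.69 CPM in D1 and 6.63, 12.2 and 15.1 CPM in D2 ventral libraries, without overlap in either region. The part of these markers in the D1 to D2 differences was not tested.

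In the ventral striatum, 30 of 55 members tested differed between D1 and D2 neurons, 15 in each direction. The background was 47.7% of 11410 genes, with 24.1% higher and 23.6% lower in D1. The share of reads in listed genes was 35.1 ± 1.64% (SD, n = 15) in D1 and 38.0 ± 1.50% (n = 14) in D2 ventral libraries, and CPM were scaled to a larger total than those reads. Scaled to the reads in genes, 19 members were higher and 10 lower in D1, where 49.1% of all genes were called and their median was 0.13. With that share as a covariate 8 members were called, 5 higher and 3 lower, where 10.7% of all genes were called. The 8 were Kcnj9, Kcnj12, Kcnj6, Kcns2 and Kcnb2, higher in D1, and Kcnj10, Kcnk2 and Kcna2, lower in D1.

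Inward rectifiers showed the widest spread of differences in the ventral striatum. The GIRK subunit Kcnj9 (GIRK3) had CPM of 4.14, 8.30 and 11.1 in D1 and 1.95, 3.19 and 10.4 in D2 libraries, a difference of 1.05 (SE 0.18, adjusted p = 1.46e-05). The GIRK subunit Kcnj6 (GIRK2) had CPM of 0.603, 1.9 and 2.83 in D1 and 0.131, 0.850 and 1.58 in D2 libraries, a difference of 0.75 (SE 0.19, adjusted p = 0.00159), which was 0.43 and not called with EM libraries alone (adjusted p = 0.0840). Both GIRK genes were higher in D1 with overlap, whereas Kcnj3 was lower in D1 in the same region.

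The strong inward rectifiers also split. Kcnj12 (Kir2.2) was higher in D1 ventral striatum by 0.76 (SE 0.20, adjusted p = 0.00199) at group means of 3.56 and 2.02 CPM, Kcnj2 was lower, at -0.72 (SE 0.13, adjusted p = 4.31e-05), at 23.9 and 39.6 CPM, and Kcnj4 (Kir2.3) differed by 0.19 and was not called. With the share of reads as a covariate the Kcnj2 difference was -0.27 and not called (adjusted p = 0.239). Kcnj10 (Kir4.1), best known from glia, had CPM of 0.772, 1.61 and 3.98 in D1 and 2.41, 4.00 and 9.51 in D2 libraries, a difference of -1.18 (SE 0.18, adjusted p = 5.23e-06). The oligodendrocyte markers Mbp and Mog summed to 26.6, 30.4 and 37.8 CPM in D1 and 17.7, 35.1 and 55.1 CPM in D2 ventral libraries, nearly all of it Mbp, while Mog alone was at 0.467 ± 0.376 CPM (SD, n = 15) and 1.12 ± 0.625 CPM (n = 14). Microglia markers (Cx3cr1, P2ry12) summed to 0, 0.12 and 0.487 CPM in D1 and 0.297, 0.721 and 3.29 CPM in D2. Astrocyte markers (Aqp4, Gfap, Aldh1l1) summed to 0.472, 1.51 and 3.13 CPM in D1 and 0.589, 2.07 and 3.36 CPM in D2. Of the astrocyte markers, Aqp4 had means of 0.602 CPM in D1 and 1.19 CPM in D2. Gfap and Aldh1l1 were not higher in D2, with means of 0.454 and 0.431 CPM in D1 and 0.369 and 0.412 CPM in D2. Every one of these markers was read in both groups. Their part in the Kcnj10 difference was not tested.

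All 3 Kv4 pore genes were called lower in D1 ventral striatum, with Kcnd1 at -0.51 (SE 0.12), Kcnd2 at -0.27 (SE 0.11) and Kcnd3 at -0.28 (SE 0.11). With the share of reads as a covariate none of the 3 was called, at -0.33, -0.00442 and 0.00486 (adjusted p = 0.171, 0.988 and 0.987). Kcnd1 was called without the libraries that stood apart, at -0.46 (adjusted p = 0.00131). Neither Kcnd2 nor Kcnd3 was called without the libraries that stood apart (adjusted p = 0.0732 and 0.0618). The Kv4 partner Kcnip4 (KChIP4) was lower in D1, at -0.50 (SE 0.13), and so was the modifier Kcnv1, at -0.55 (SE 0.16), and with that covariate they were at -0.04 and 0.03 and not called. Higher in D1 were the ELK channel Kcnh3, by 0.65 (SE 0.18), the modifiers Kcns2, by 0.67 (SE 0.16), and Kcnf1, by 0.76 (SE 0.17), and Kcnab2, by 0.65 (SE 0.15). Of these 4, Kcns2 kept its call with the covariate, at 0.91 (adjusted p = 0.00395).

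The M-current genes Kcnq3 and Kcnq5 were called between D1 and D2 neurons in neither region. Their differences were 0.09 and 0.27 in the dorsal and 0.20 and -0.08 in the ventral striatum, with SEs of 0.11 to 0.16, and with EM libraries alone Kcnq5 was called in the dorsal striatum, at 0.40 (adjusted p = 0.0146). The small-conductance channel genes Kcnn1, Kcnn2 and Kcnn3 and the BK pore gene Kcnma1 were also called in neither, with differences between -0.30 and 0.35, although Kcnma1 was called in the dorsal striatum with EM libraries alone, at 0.32 (adjusted p = 0.0398).

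**Figure D2:**
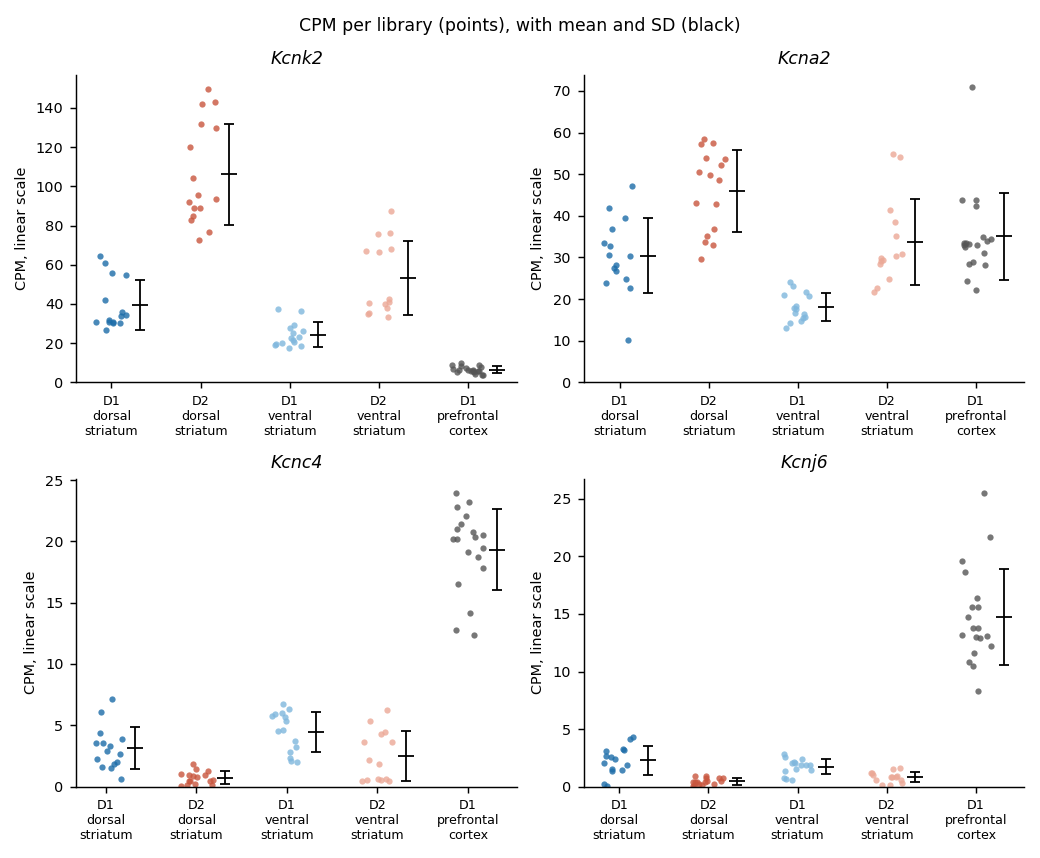
CPM of Kcnk2, Kcna2, Kcnc4 and Kcnj6 in each library (points) by group, on linear axes from 0, with the group mean and SD in black. Kcnk2 is higher in D2 than in D1 libraries of each striatal region, without overlap in the dorsal striatum, and Kcnc4 and Kcnj6 are highest in the cortex.

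**Figure D3:**
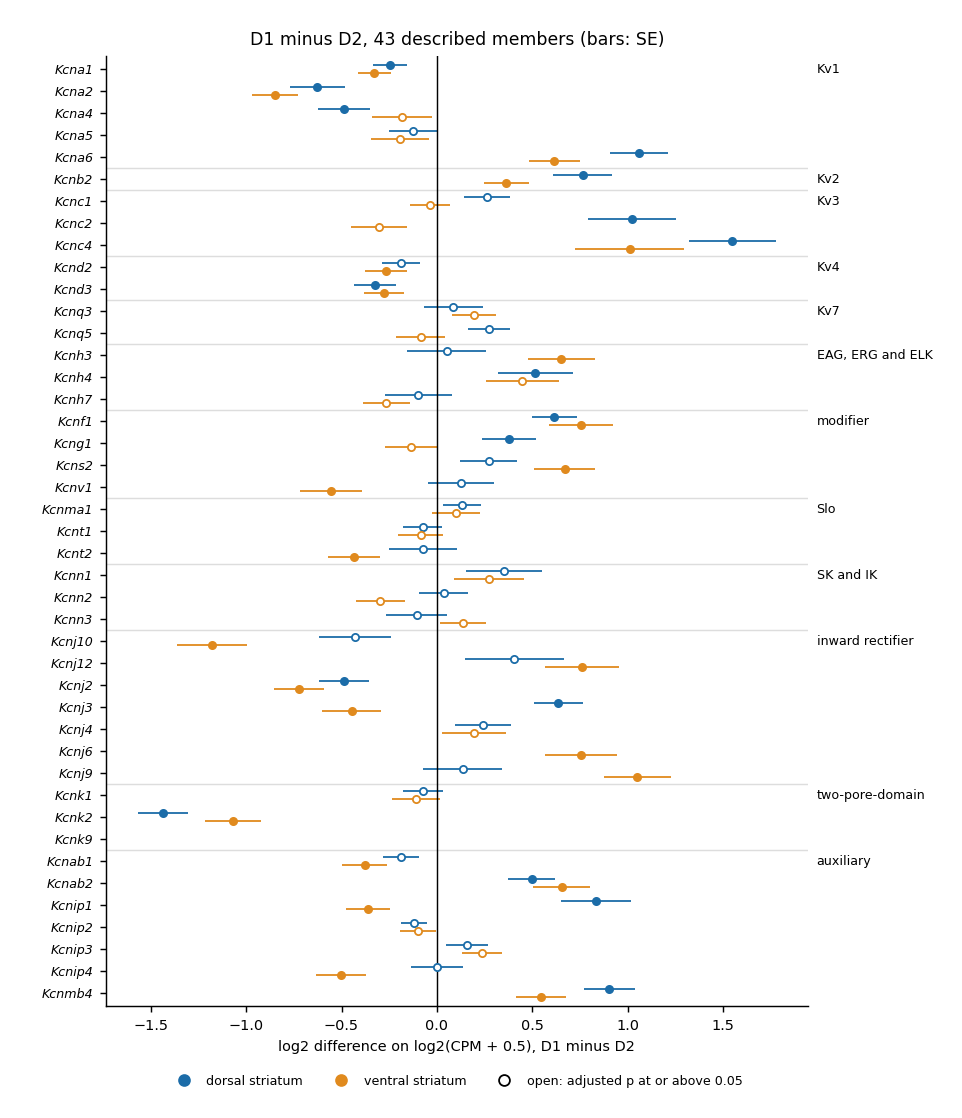
D1 minus D2 differences on the log2(CPM + 0.5) scale, with SE, for the 43 members described by name, ordered by family; blue is dorsal and orange ventral striatum, and filled points have an adjusted p under 0.05. Kcnk2 lies farthest to the left and Kcnc4 farthest to the right in the dorsal striatum, and Kcnip1 and Kcnj3 have filled points on both sides of 0.

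Between the striatal regions, 25 of 56 members tested differed in D1 neurons, 21 higher and 4 lower in the dorsal striatum, and 29 of 51 in D2 neurons, 17 higher and 12 lower. Over all genes 34.6% of 11332 were called in D1 neurons, 10.1% higher and 24.5% lower, and 28.5% of 11187 in D2 neurons, 7.93% higher and 20.6% lower. The median difference over all genes was -0.12 in each comparison and moved to -0.01 and -0.00 with median-ratio scaling, while the members' medians were 0.18 and 0.13 as deposited and 0.28 and 0.23 with that scaling. The split of members with that scaling was 26 to 3 in D1 and 21 to 7 in D2 neurons. Of all genes 29.0% and 24.4% were called with it, and their direction was not counted. In the values as deposited, the members called higher in the dorsal striatum were a larger share of those tested than among all genes, in both receptors. These counts were not themselves tested.

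Members lower in the dorsal striatum included Kv4 channel genes and partners. Kcnip1 was at -2.37 (SE 0.14, adjusted p = 2.98e-15) in D1 and at -3.57 (SE 0.17, adjusted p = 2.43e-18) in D2 neurons, with no overlap. The pore gene Kcnd3 had CPM of 5.75, 7.37 and 11.5 in dorsal and 11.8, 14.2 and 24.7 in ventral D1 libraries, and 8.35, 10.2 and 14.3 in dorsal and 14.5, 18.1 and 24.1 in ventral D2 libraries. Its regions did not overlap in either receptor, with differences of -0.84 (SE 0.12, adjusted p = 6.74e-07) and -0.80 (SE 0.10, adjusted p = 5.06e-08). Kcnip4 was at -0.36 (SE 0.10) in D1 and -0.86 (SE 0.16) in D2, the first of these not called by edgeR (adjusted p = 0.104) or with EM libraries alone (adjusted p = 0.0660).

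Kcnd2 (Kv4.2), the other main Kv4 pore gene, went the opposite way. Its CPM was 55.4, 74.9 and 106 in dorsal and 37.1, 44.0 and 71.1 in ventral D1 libraries, and 68.4, 89.4 and 120 in dorsal and 42.4, 51.7 and 79.4 in ventral D2 libraries. The dorsal libraries were the higher with some overlap, by 0.73 (SE 0.10, adjusted p = 3.43e-07) in D1 and 0.65 (SE 0.11, adjusted p = 1.75e-05) in D2. Kcnip2 (KChIP2), its common partner, differed by 0.20 (SE 0.08) and 0.22 (SE 0.09), and Kcnip3 by 0.28 (SE 0.10) and 0.37 (SE 0.11), all called. With EM libraries alone Kcnip2 in D2 and Kcnip3 in both receptors were not called (adjusted p = 0.592, 0.0851 and 0.0541), and Kcnip2 in D2 was not called without the libraries that stood apart (adjusted p = 0.0512).

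Among K2P channels, Kcnk1 (TWIK-1), a weakly conducting background channel, had CPM of 20.2, 31.1 and 38.6 in dorsal and 9.46, 14.2 and 20.4 in ventral D1 libraries, and 23.3, 29.9 and 55.9 in dorsal and 9.59, 14.3 and 23.0 in ventral D2 libraries. The D2 regions did not overlap, and 14 of 15 dorsal D1 libraries lay above every ventral one. The differences were 1.10 (SE 0.11, adjusted p = 6.15e-10) and 1.07 (SE 0.12, adjusted p = 7.83e-09). Kcnk2 was higher in the dorsal striatum by 0.66 (SE 0.13) in D1 and 1.03 (SE 0.15) in D2 neurons.

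Other members higher in the dorsal striatum of both receptors were the ELK channel Kcnh4, by 1.09 (SE 0.13) and 1.02 (SE 0.24), the sodium-activated channel Kcnt1 (Slack), by 0.87 (SE 0.12) and 0.85 (SE 0.10), the ERG channel Kcnh7, by 0.86 (SE 0.16) and 0.69 (SE 0.14), the M-current subunit Kcnq3, by 0.59 (SE 0.14) and 0.70 (SE 0.14), and Kcnab1, by 0.66 (SE 0.08) and 0.47 (SE 0.13), in D1 and D2 neurons. Kcnh4 in D2 neurons was not called with EM libraries alone (0.84, adjusted p = 0.106). Its CPM was 1.35, 6.42 and 11.6 in dorsal and 0.405, 2.69 and 5.90 in ventral D2 libraries, which overlapped. Kcna5 (Kv1.5), a delayed rectifier at low levels here, was lower in the dorsal striatum, at -0.55 (SE 0.15) in D1 and -0.63 (SE 0.13) in D2.

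Kcnc2 and Kcnj3 were called in opposite directions in the receptors. Kcnc2 was higher in the dorsal striatum by 0.41 (SE 0.15, adjusted p = 0.0342) in D1 and at -0.92 (SE 0.23, adjusted p = 0.00249) in D2 neurons, and Kcnj3 by 0.50 (SE 0.12, adjusted p = 0.00129) in D1 and at -0.58 (SE 0.16, adjusted p = 0.00588) in D2, which are the same samples and the same contrast as the interaction. Kcnj9 was higher in the dorsal striatum of D2 neurons by 1.03 (SE 0.20, adjusted p = 0.000110) and differed by 0.11 (SE 0.19, adjusted p = 0.680) in D1, but the interaction of -0.92 was not called (adjusted p = 0.0584). It was called with the name code as a covariate, at -1.02, with all 5 groups in 1 fit, at -0.92, and without D2 ventral striatum replicate 2, at -0.99. Without the libraries that stood apart the D1 value was 0.33 and called (adjusted p = 0.0289). Kcng1 was called higher in the dorsal striatum of D1 neurons by 0.90 (SE 0.12), and Kcnh3 in D2 neurons by 0.87 (SE 0.19), with interactions that were not called (adjusted p = 0.178 and 0.294).

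**Figure D4:**
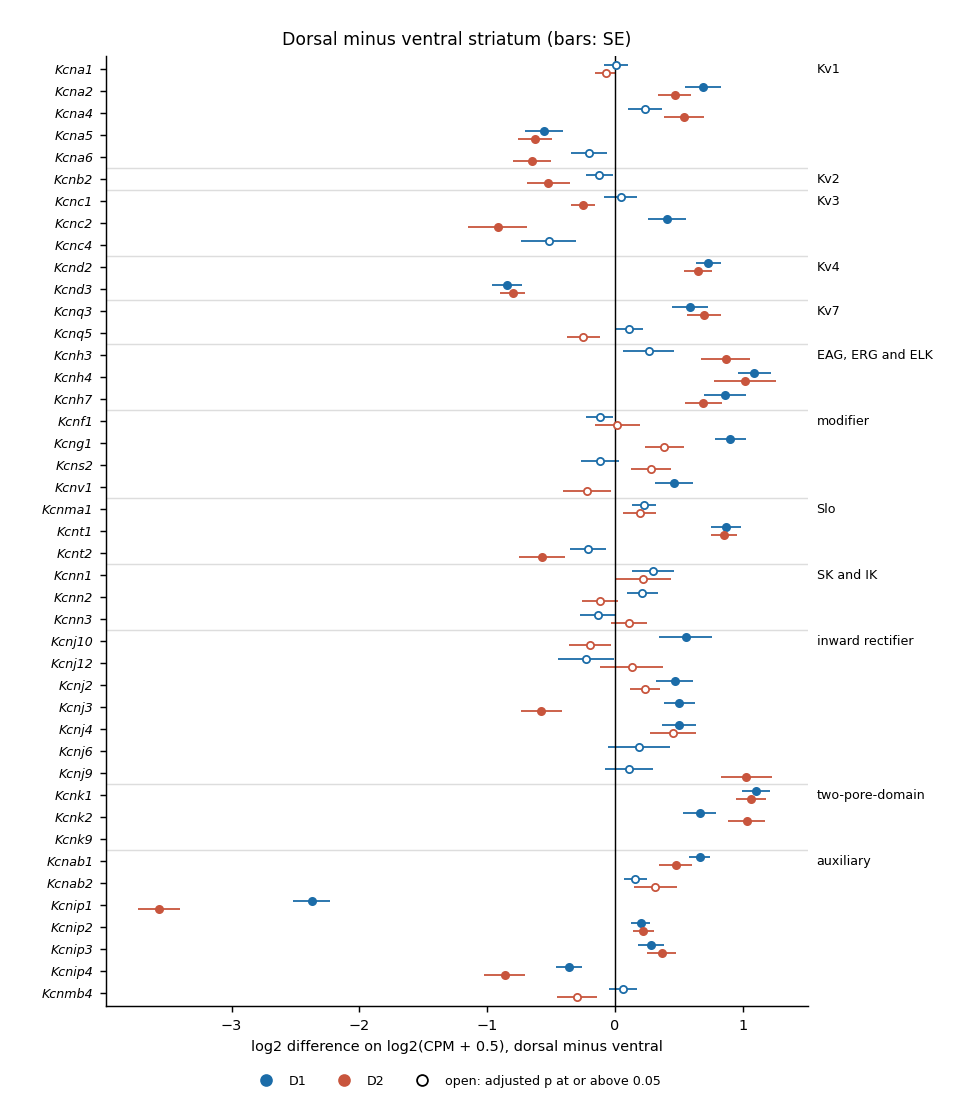
Dorsal minus ventral striatum differences on the log2(CPM + 0.5) scale, with SE, for the same members in D1 (blue) and D2 (red) neurons; filled points have an adjusted p under 0.05. Kcnip1 lies far to the left at -2.37 and -3.57, and Kcnk1, Kcnh4 and Kcnt1 lie to the right in both receptors.

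D1 neurons of the prefrontal cortex were set against D1 neurons of each striatal region, comparisons that share the 19 cortical libraries. Against the dorsal striatum 54 of 62 members tested differed, 32 higher and 22 lower in the cortex, where 54.8% of 11654 genes were called, 32.3% higher and 22.5% lower. Against the ventral striatum 54 of 62 differed, 34 higher and 20 lower, where 62.8% of 11749 genes were called, 27.7% higher and 35.1% lower. At least 2-fold and called, 18 members were higher and 13 lower than in the dorsal striatum, where 10.7% and 5.37% of all genes were, and 19 were higher and 9 lower than in the ventral striatum, where 8.55% and 5.62% of all genes were. These counts include Kcng4, Kcnj16, Kcnk4, Kcnk9 and Kcns3, which reached 1 CPM only through the cortex and so could only be higher there. At 5 CPM, 12 members were higher and 10 lower at least 2-fold against the dorsal and 12 higher and 7 lower against the ventral striatum. With that filter 55.4% and 64.4% of all genes were called at any size of difference. The share of all genes at least 2-fold was not counted with that filter, so these member counts have no background. The cortical libraries differed from the striatal ones in cell type too, with the striatal projection neuron markers Ppp1r1b and Rgs9 summing to a median of 28.5 CPM against 1066 in D1 dorsal and 774 CPM in D1 ventral striatum, so region and cell type cannot be told apart.

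Of the 6 A-type genes chosen by role, Kcnip2 and Kcnd2 were lower and Kcnip1, Kcnip4 and Kcnd3 higher in the cortex in both comparisons. Kcnip3 was at -0.27 (SE 0.10) against the dorsal and 0.01 (SE 0.08) against the ventral striatum, and the second was not called. Kcnip4 was higher by 0.92 (SE 0.12) and 0.56 (SE 0.11). Kcnip2 had CPM of 10.2, 22.1 and 29.8 in the cortex, against 90.0, 111 and 142 in D1 dorsal and 76.2, 93.6 and 137 in D1 ventral striatum. Kcna4 had CPM of 4.27, 6.93 and 14.9 in the cortex, against 22.0, 34.1 and 56.8 in D1 dorsal and 22.1, 28.1 and 50.4 in D1 ventral striatum. Neither gene overlapped between cortex and striatum, and Kcnd2 did not either. Cortex minus dorsal and ventral striatum was -2.36 and -2.16 for Kcnip2 (SE 0.09 and 0.10), -2.25 and -2.02 for Kcna4 (SE 0.14 and 0.14) and -1.77 and -1.04 for Kcnd2 (SE 0.10 and 0.09). The Kv1 partner Kcnab1 was at -2.60 and -1.94 (SE 0.09 and 0.08), also without overlap.

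The K2P gene Kcnk2 had cortical CPM of 3.58, 6.18 and 10.0, below every striatal library, at -2.52 and -1.85 (SE 0.13 and 0.12). The inward rectifier Kcnj2 had cortical CPM of 4.00, 6.65 and 11.4, against 20.9, 31.4 and 51.7 in D1 dorsal and 15.6, 22.5 and 35.6 in D1 ventral striatum, at -2.19 and -1.72 (SE 0.15 and 0.14), and Kcnj4 was at -1.14 and -0.64 (SE 0.13 and 0.12). The M-current genes Kcnq3 and Kcnq5 were lower in both comparisons, at -1.04 and -0.46 and at -0.68 and -0.57. The small-conductance channel gene Kcnn3 was lower at -1.63 and -1.77 (SE 0.17 and 0.14), whereas its relatives Kcnn1 and Kcnn2 were higher in the cortex by 0.62 and 0.92 and by 0.60 and 0.82. Kcna5 was at -2.39 and -2.94 (SE 0.13 and 0.15), at a cortical mean of 0.454 ± 0.280 CPM (SD, n = 19). It reached 1 CPM mainly through the striatal groups, so the filter favoured that direction. Kcnh4 was at -2.45 and -1.37 (SE 0.14 and 0.14).

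Higher in the cortex were the Kv3 genes Kcnc1, Kcnc2 and Kcnc4. Kcnc2 had CPM of 15.8, 25.5 and 31.2 in the cortex, above every D1 striatal library, with differences of 2.29 and 2.70 (SE 0.14 and 0.10), and Kcnc4 of 12.4, 20.2 and 23.9, with differences of 2.58 and 2.06 (SE 0.17 and 0.13). Kcnc1 was higher by 0.94 and 0.99. The 4 GABA interneuron markers summed to 80.1, 141 and 239 CPM in the cortex, above all D1 striatal libraries, the highest of which stood at 55.9 CPM. Sst made up the largest part of the cortical sum, at a mean of 73.1 CPM. Pvalb, of fast-spiking cells in which Kv3 channels are well known, was at 3.24, 14.3 and 30.2 CPM in the cortex. It was at 1.27, 4.12 and 13.4 CPM in D1 dorsal striatum, which overlapped, and at 0.365, 1.42 and 2.78 CPM in D1 ventral striatum. Their part in the Kv3 differences was not tested.

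The G protein-gated subunits Kcnj3, Kcnj6 and Kcnj9 were each higher in the cortex, while Kcnj5, a GIRK gene that was not tested, had means of 0.440 CPM in the cortex, 0.368 in D1 dorsal and 1.25 in D1 ventral striatum. Kcnj6 had CPM of 8.27, 13.7 and 25.5 in the cortex, against 0.0842, 2.37 and 4.31 in D1 dorsal and 0.603, 1.9 and 2.83 in D1 ventral striatum, with differences of 2.60 and 2.79 (SE 0.21 and 0.14) and no overlap. Kcnj3 had CPM of 30.8, 45.7 and 83.5 in the cortex, above every D1 striatal library, with differences of 1.70 and 2.21 (SE 0.13 and 0.12). Kcnj9 was higher by 1.42 and 1.54 (SE 0.20 and 0.15), with cortical replicate 10, which stood apart, at 5.30 CPM and within the striatal range.

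Further members higher in the cortex were the sodium-activated channel Kcnt2 (Slick), by 2.34 and 2.14, Kcnh7, by 1.52 and 2.38, Kcna6, by 1.52 and 1.31, Kcnmb4, by 1.49 and 1.55, Kcnd3, by 1.58 and 0.73, and the BK pore gene Kcnma1, by 0.74 and 0.96. The K2P channel Kcnk9 (TASK-3) was at 1.66 and 1.23, at a cortical mean of 2.65 CPM. It reached 1 CPM only through the cortex, so the filter fixed its direction. Kcnt2 had CPM of 7.65, 14.2 and 18.5 in the cortex, against 1.21, 1.92 and 5.05 in D1 dorsal and 1.94, 2.38 and 3.73 in D1 ventral striatum, with no overlap. Kcnip1 was higher than in the dorsal striatum by 3.03 (SE 0.14, adjusted p = 1.76e-21) and than in the ventral striatum by 0.66 (SE 0.10, adjusted p = 2.59e-07). Its cortical libraries thus overlapped the ventral but not the dorsal ones. Kcnk1 was lower than in the dorsal striatum, at -0.37 (SE 0.10), and higher than in the ventral striatum by 0.74 (SE 0.11).

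**Figure D5:**
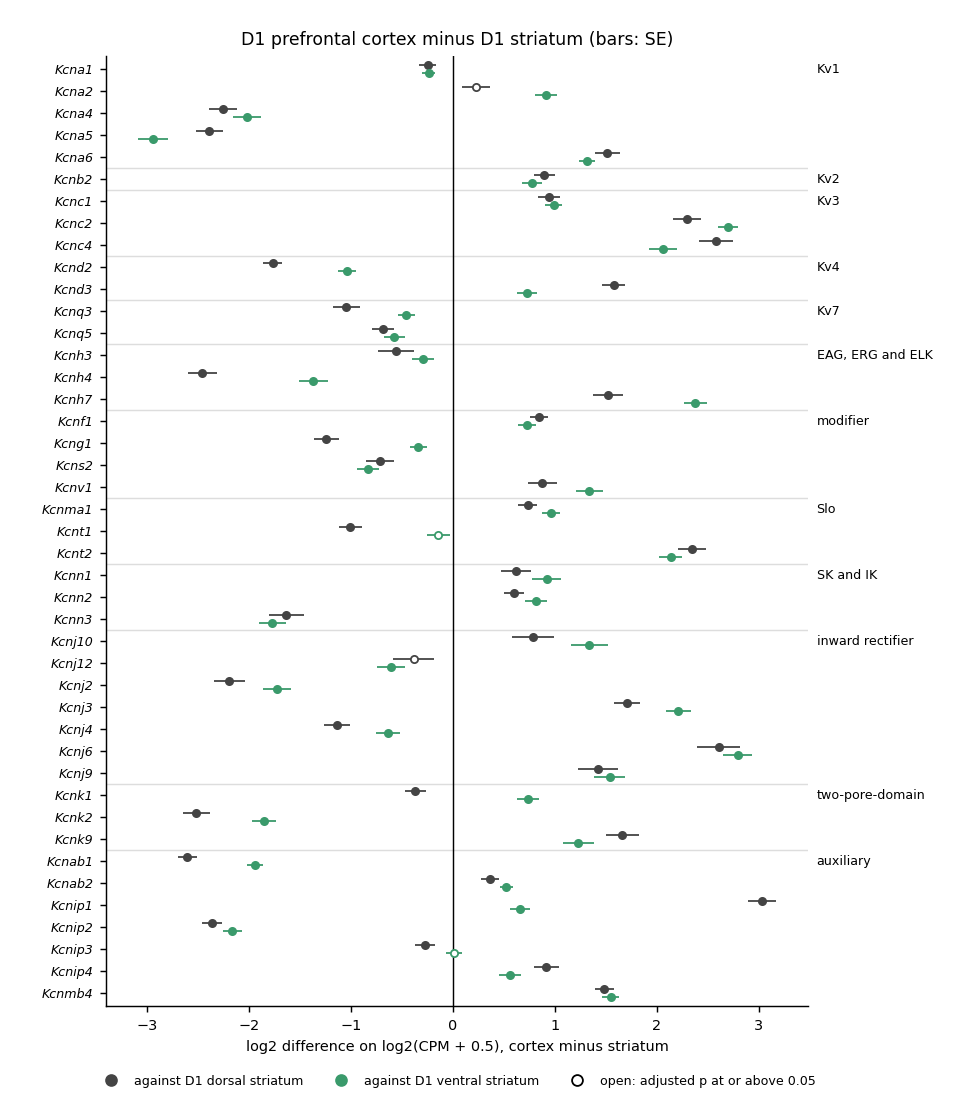
D1 prefrontal cortex minus D1 dorsal striatum (grey) and minus D1 ventral striatum (green) on the log2(CPM + 0.5) scale, with SE, for the same members; filled points have an adjusted p under 0.05. The Kv3 genes Kcnc1, Kcnc2 and Kcnc4 and the GIRK genes Kcnj3, Kcnj6 and Kcnj9 lie to the right of 0, and Kcnab1, Kcnip2, Kcna4, Kcna5, Kcnj2 and Kcnk2 lie to the left; both series share the cortical libraries.

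The members called in all 6 comparisons of 2 groups were 4, namely Kcnip1, Kcnd3, Kcnj3 and Kcnk2. How many of all genes were called in all 6 was not counted, so the 4 cannot be set against a background. Kcnip1, Kcnd3 and Kcnj3 each lost a D1 to D2 call in alternatives given above. Kcnip1 and Kcnd3 belong to the Kv4 complex, and Kcnj3 and Kcnk2 are targets of G protein signalling. Among members tested at least once, Kcnj11 (Kir6.2), the pore of ATP-sensitive channels, and Kcnk13, tested in the regional comparison of D1 neurons and the interaction, were called in none. Group means of Kcnj11 ran from 1.28 to 1.70 CPM.

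Genes that are no members but act with these channels came from a list of 17 (the Hcn cation channels, Dpp6, Dpp10, Amigo1, Cntnap2, Lgi1, Adam22, Dlg4, Abcc8, Abcc9 and 4 BK gamma subunits). Between D1 and D2 neurons 4 of 11 tested were called in the dorsal striatum and 4 of 12 in the ventral striatum, 2 in each direction in both, where 25.9% and 47.7% of all genes were called. Between dorsal and ventral striatum 3 were higher and 4 lower of 12 in D1 neurons, and 4 higher and 3 lower of 10 in D2 neurons, where 34.6% and 28.5% of all genes were called. Against the dorsal striatum 5 were higher and 5 lower of 12 in the cortex, and against the ventral striatum 5 higher and 3 lower of 12, where 54.8% and 62.8% of all genes were called.

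The Kv4 partner Dpp10 had CPM of 8.91, 14.4 and 20.8 in dorsal and 24.1, 29.3 and 41.0 in ventral D1 libraries, and 6.96, 11.6 and 17.6 in dorsal and 21.7, 41.8 and 54.1 in ventral D2 libraries. Its regions did not overlap in either receptor, with differences of -1.11 (SE 0.11) and -1.71 (SE 0.14). Dpp6, a second Kv4 partner, was higher in the dorsal striatum, by 0.29 (SE 0.11) and 0.70 (SE 0.10). The BK gamma subunit Lrrc55 was higher in D1 than in D2 dorsal striatum by 1.12 (SE 0.13), and its interaction of 0.87 (SE 0.20, adjusted p = 0.00498) was the 1 called among the 12 tested, and was not called with EM libraries alone (adjusted p = 0.0694).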

How the data were processed

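Ribosome-bound mRNA was sequenced in 79 libraries. The authors deposited 1 table of CPM values, and all its columns were matched to samples by name. The submitters' processing notes name the build GRCm38 and Trim Galore 0.4.2, cutadapt 1.9.1, FastQC and HISAT2 0.12.2; the counting program, annotation, strand setting and filters are not given in the sources used here. In each column 100% of the deposited CPM values came out as whole reads (within 0.01 reads), at 7.35 to 30.8 M reads in genes per library. The sources used here mention no molecular identifiers, and depth bounds counting error only.

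Groups came from the labelled region and receptor. Genes with at least 1 CPM in as many libraries as the smaller group holds (14 for the interaction) were tested on log2(CPM + 0.5) with limma 3.58.1 (eBayes with trend, R 4.3.3), two-sided, with Benjamini-Hochberg adjustment over all genes tested. Alternatives were other pseudocounts (0.1 and 1), filters (none, 5 CPM), 2 other scalings, edgeR 4.0.16 quasi-likelihood tests on the recovered reads (20 members called between D1 and D2 in the dorsal striatum, against 21), EM libraries alone, the name code or the in-gene share of reads as a covariate, all 5 groups in 1 fit, and leaving out D2 ventral striatum replicate 2. EM, OdP, BdP and JAG are the letters that begin library names; their meaning is not stated. Exon lengths and overlaps are from GENCODE M21, in which all 92 symbols were found, and sequences from RefSeq.

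The members and lists were chosen with earlier results of these data known. The 43 members described by name were, per comparison, the 5 largest called differences in each direction with at least 2 CPM in the higher group, called interactions, and 33 chosen by role, apart from some members and markers that are not reported here; Kcnd1, Kcng4, Kcnh1, Kcnh6, Kcnj11, Kcnj16, Kcnk4, Kcns1, Kcns3, Kcnk13, the members at 0 and the partner genes described were named after their values were seen. Libraries with a median within-group correlation under 0.92 over 10289 genes averaging at least 2 CPM were left out in an alternative chosen after seeing the data, as was a fit of OdP libraries alone.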

Additional observations from a re-analysis of the deposited data

Results flagged for a closer look

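The D1 to D2 difference of 3 members differed between dorsal and ventral striatum by the interaction test: Kcnc2 by 1.33, Kcnip1 by 1.20 and Kcnj3 by 1.08 on the log2(CPM + 0.5) scale. Over the alternatives the interaction ran from 1.15 to 1.53 for Kcnc2, from 1.05 to 1.38 for Kcnip1 and from 0.96 to 1.21 for Kcnj3. Kcnc2 could not be tested under the filter of 5 CPM.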

How the results depend on the processing

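Of 172 called results for the 43 members described by name, 128 kept direction and call in every alternative in which they were tested and 170 kept direction; 142 could be tested at 5 CPM. The 2 that reversed were D1 minus D2 in the ventral striatum with the in-gene share of reads as a covariate, where Kcnd3 was at 0.00486 (adjusted p = 0.987) and Kcnv1 at 0.0298 (adjusted p = 0.940). With that covariate 8 members were called there, against 30, and 10.7% of all genes, against 47.7%. With the name code as a covariate 6 members had a called interaction, against 3, where 4.04% of all genes had one, against 2.64%, the added ones being Kcnj9 at -1.02, Kcnq5 at 0.38 and Kcnv1 at 0.75. No other total of members called moved by more than 1.5 times. By direction, 3 members were lower in D1 dorsal striatum with EM libraries alone, against 6, and 8 higher at 5 CPM, against 15. Between regions 7 D2 values were lower in the dorsal striatum with median-ratio scaling and with edgeR, against 12, and 7 D1 values with no filter, against 4. At 5 CPM 21 were higher in the cortex than in the dorsal striatum, against 32. EM libraries alone lost 25 of the 172 calls, and fewer libraries enter that fit. OdP libraries alone, an alternative chosen after seeing the data, called 23 members between dorsal and ventral D2 neurons, against 29, and 18.5% of all genes, against 28.5%. Leaving out the 6 libraries that stood apart lost 6 calls, and leaving out D2 ventral striatum replicate 2, the highest of its group for cortical markers, lost 0 of 51. No paired analysis was possible because replicate numbers were assigned in accession order and the labels do not say which libraries share mice; names that run on across regions were not used as pairs. Members that reached 1 CPM in too few libraries were left out by the filter, and with no filter 84 to 87 members were tested in the comparisons of 2 groups.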

Other observations

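The 29 members that were not tested included the GIRK subunit Kcnj5, at 1.25 ± 0.465 CPM in D1 ventral striatum (SD, n = 15), and the BK subunit Kcnmb2, at 1.14 ± 0.493 CPM in the cortex (n = 19). These members were named after their values were seen. Kcnj5 had at least 1 read in all 15 D1 ventral libraries and a mean of 0.521 ± 0.437 CPM (n = 14) in D2 ventral striatum.

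Members outside the rule for names, chosen after their values were seen, included the K2P channel Kcnk3 (TASK-1), higher in the cortex than in D1 dorsal striatum by 1.15 at means of 5.06 and 1.98 CPM. The Kvbeta subunit Kcnab3 was higher in the cortex than in the dorsal striatum by 1.24 and than in the ventral striatum by 1.05.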
